A study of Mus musculus with 6 samples.

Results

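Edil3 encodes a secreted glycoprotein of the extracellular matrix that binds integrins, and it is described here together with Mfge8, its closest homolog, the integrin subunit genes Itgav, Itgb3 and Itgb5, and the genes Cox7c, Hapln1 and Vcan, which lie next to it on chromosome 13. These are 8 of 18193 genes named on the array, and the platform annotation assigns 32 of its 45037 probe sets to exactly 1 of them. Edil3 was chosen by its measured signal, which was higher on every transgenic array than on any control array, so its contrast between the groups is given as a description with no test. Mfge8 and the integrins were included for their relation to Edil3, and the neighbours for their position. The 6 arrays read RNA from cells of the hippocampus, with a linear intensity for each probe set. The labels name these cells DGCs, taken here to mean granule neurons of the dentate gyrus, as known from the study. Per group there are 3 arrays from 2 mice, with 1 array for mouse 1 and 2 arrays for mouse 2.

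By the series title the transgenic mice overexpress HuD, an Elav-family protein of neurons that binds U-rich stretches of mRNAs and stabilises many of them, and the control mice do not. The labels used here give neither the promoter of the transgene nor the strain, age or sex of the mice, and list preservation as the treatment of every sample. Re-LCM, a tag left unexplained in the labels, stands in 3 titles: control mouse 1, transgenic mouse 1 and array 1 of transgenic mouse 2. Every untagged array comes from control mouse 2 or transgenic mouse 2, so among controls the tag cannot be told apart from the mouse. The 2 arrays described as control mouse 2 are numbered control 1 and control 2 in their titles, so whether they share a mouse rests on the descriptions. Elavl4, the gene of HuD, had a log2 difference between transgenic and control mice of -0.33 (SE 0.27, limma adjusted p = 0.999), and whether its probe sets match the transgene's transcript was not examined. The granule cell genes Prox1, Dsp and Tdo2 passed the filter on low signal, as did all 13 listed markers of these cells. With so few mice every value is imprecise.

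Edil3 protein, also called Del-1, carries EGF-like repeats followed by discoidin domains. An RGD motif in its EGF-like part binds the integrins αvβ3 and αvβ5, whose subunits are encoded by Itgav, Itgb3 and Itgb5, and the discoidin domains bind phosphatidylserine on membranes. Mfge8, also called lactadherin, has the same kinds of domains and bridges dying cells to phagocytes through the same integrins. Both are best known as matrix and engulfment proteins, Edil3 first from endothelial cells and Mfge8 from milk fat globules, phagocytes and, in the brain, astrocytes.

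Edil3 was read by 6 probe sets, and the brightest of them, 1433474_at, carried the difference for which the gene was chosen. Its intensity was 718 on the array of control mouse 1, and 316 and 564 on the 2 arrays of control mouse 2. It was 2685 on the array of transgenic mouse 1, and 1918 and 2856 on the 2 arrays of transgenic mouse 2. All 3 transgenic arrays thus lay above all 3 control arrays, and the lowest transgenic array stood 1.42 log2 units above the highest control array. Control mice averaged 9.11 ± 0.54 and transgenic mice 11.29 ± 0.14 on the log2 scale (SD, n = 2 mice), which is a difference of 2.19 log2 units or 4.55-fold. Among the 14678 genes with signal enough to be compared, this was the widest difference in either direction.

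Within the groups the same probe set varied by less than between them. A gene chosen for separate groups tends to do so, and this is a description only. The control arrays spanned 1.18 log2 units and the transgenic arrays 0.57. Both arrays of control mouse 2 were 0.83 log2 units apart, and those of transgenic mouse 2 were 0.57 apart. The labels used here do not say whether the arrays of a mouse share an RNA sample. In both mice the second array read higher. The tag re-LCM is a contrast that played no part in the choice of Edil3: with group as a second term over the 6 arrays, tagged minus untagged arrays differed by 0.22 log2 units (SE 0.36, limma adjusted p = 0.983). That fit takes the 6 arrays as separate samples, so its SE and p do not measure the spread between mice. Within the 3 tagged arrays, transgenic minus control was 1.66, and within the 3 untagged arrays it was 2.76.

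The other 5 Edil3 probe sets were dim, and 1 of them separated the groups too. Of all 32 member probe sets, 2 were higher on every transgenic array, both of Edil3, and 2 were lower, against 3.01% higher, 4.01% lower and 7.03% either way among all probe sets. Since Edil3 was chosen for being higher, the count of higher probe sets is no result about the members. Values under an intensity of 10.1, the 25th percentile of all values, were set to that floor before taking log2, and values at the floor have no order. Probe set 1425622_at read 56.7 on transgenic mouse 1 and 53.7 and 51.7 on transgenic mouse 2. On the control arrays it read 4.58 for mouse 1, and 33.5 and 4.61 for mouse 2. The transgenic arrays were all higher and close together, while 2 of the 3 control arrays lay under the floor, so its difference of 2.01 depends on where the floor stands.

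Probe set 1446573_at was above the floor on all 6 arrays and did not separate the groups, with 28.2 to 37.2 on control and 31.96 to 38.3 on transgenic arrays. For 1440674_at, 2 transgenic arrays read 33.5 and 42.8 but the third was under the floor at 4.15, and the control arrays read 26.1, 1.23 and 3.51. Probe sets 1425842_at and 1458867_at were under the floor on 1 and 2 arrays, read at most 28.2 and 16.4, and overlapped between the groups, with differences of 0.46 and 0.33. The plot of the 6 probe sets by array shows that the description of Edil3 as higher rests on 1433474_at and, at low signal, on 1425622_at. Where in the transcript each probe set lies was not examined.

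**Figure D1:**
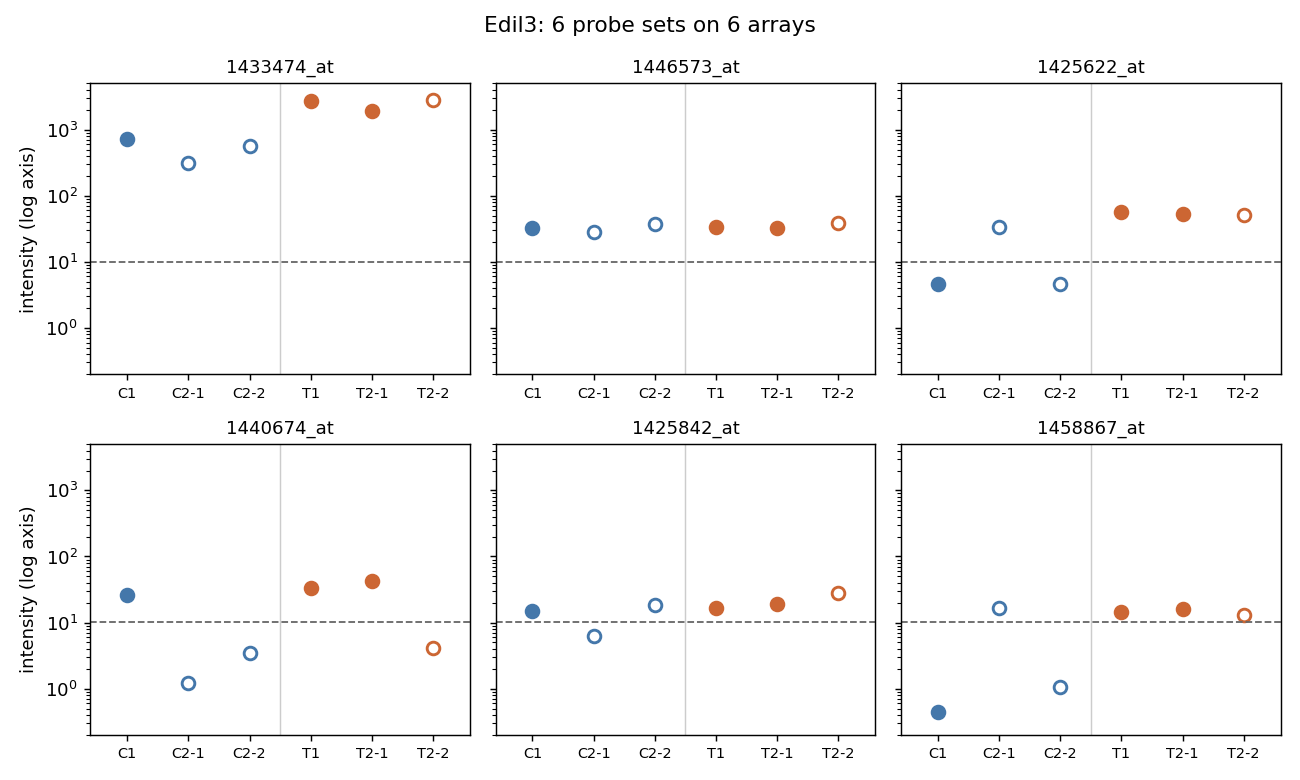
Intensity (log axis) of the 6 Edil3 probe sets on the 6 arrays: C is control and T transgenic, the first digit is the mouse and the second the array of mouse 2, filled points carry the re-LCM tag and the dashed line is the floor of 10.1. Probe set 1433474_at reads 316 to 718 on control and 1918 to 2856 on transgenic arrays, 1425622_at also separates the groups at low signal, and the other 4 overlap.

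Mfge8, the homolog, had 1 probe set, and its level did not follow the groups. It read 519 on control mouse 1, and 448 and 227 on the arrays of control mouse 2. It read 195 on transgenic mouse 1, and 410 and 222 on the arrays of transgenic mouse 2. The arrays fell into 3 brighter and 3 dimmer ones, and each group held both kinds. On the log2 scale control mice averaged 8.67 ± 0.50 and transgenic mice 7.92 ± 0.45 (SD, n = 2), and the difference was -0.75 (95% interval -1.65 to 0.15, limma adjusted p = 0.999 over 14678 genes). Array 2 read lower than array 1 by 0.98 log2 units in control mouse 2 and by 0.89 in transgenic mouse 2. Both of these differences between arrays of a single mouse were wider than the difference between the groups over all mice, and without any 1 mouse the group difference ran from -1.10 (without control mouse 2) to -0.40 (without control mouse 1).

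Astrocytes make Mfge8, and how far their markers followed its signal across the arrays depended on how they were summarised. The summed intensity of the 11 measured astrocyte markers (of 12 listed) ran from 12249 to 17804 on control and from 10908 to 14326 on transgenic arrays, and put the 6 arrays in the same order as Mfge8. Clu, which made up 45.9% to 56.5% of that sum, gave that order as well. Without Clu the remaining 10 markers still placed control mouse 1 and array 1 of control mouse 2 first and transgenic mouse 1 last, but ordered the other 3 arrays differently. With every marker weighted equally on the log2 scale, the mean deviation was lowest on array 2 of control mouse 2 (-0.196), below transgenic mouse 1 (-0.165), and was -0.027 on array 2 of transgenic mouse 2, above the other transgenic arrays, where Mfge8 read 222 and was below array 1 of the same mouse. The single marker Slc1a3, a glutamate transporter, was highest on that last array, at 785.

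Markers of astrocytes, microglia and oligodendrocytes were mostly lower in the transgenic mice, but this was not particular to glia. Of the measured markers, 10 of 11 were lower for astrocytes (median -0.21), 7 of 7 for microglia (median -0.33) and 10 of 10 for oligodendrocytes (median -0.57), and 0 passed the limma test. Summed intensities overlapped between the groups: microglia markers ran from 3209 to 4564 on control and from 3025 to 3752 on transgenic arrays, and oligodendrocyte markers from 4936 to 12433 and from 5719 to 8362. Of 4 measured endothelial markers 2 were lower (median -0.14), with sums of 267 to 391 on control and 185 to 289 on transgenic arrays, and Pecam1 was at the floor. Of 4 measured pericyte and smooth muscle markers 3 were lower (median -0.28), with sums of 225 to 381 and 227 to 274, and Anpep was at the floor. Granule cell markers were lower in 10 of 13 (median -0.12). So were 7 of 9 interneuron markers (median -0.38), 4 of 5 mossy cell markers (-0.31) and 4 of 6 pyramidal cell markers (-0.32). Oligodendrocyte precursors went the other way, with 3 of 5 markers higher and 2 lower (median 0.14). Single markers did separate the arrays: 1 oligodendrocyte and 1 endothelial marker were lower, and 1 pyramidal cell marker was higher. Interneurons and oligodendrocyte precursors each had 1 lower and 1 higher, and the other lists had 0. Of all genes 8.07% separated the arrays, so these counts are no result about the cell types. None of these astrocyte or microglia markers was at the floor on all arrays in all its probe sets. The part of these cell types in the Mfge8 signal, or in genes given below as lower such as Fn1, Cav1, Pros1, C1qb and C1qc, was not tested, and in such bulk RNA fewer cells of a type and less RNA per cell cannot be told apart.

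**Figure D2:**
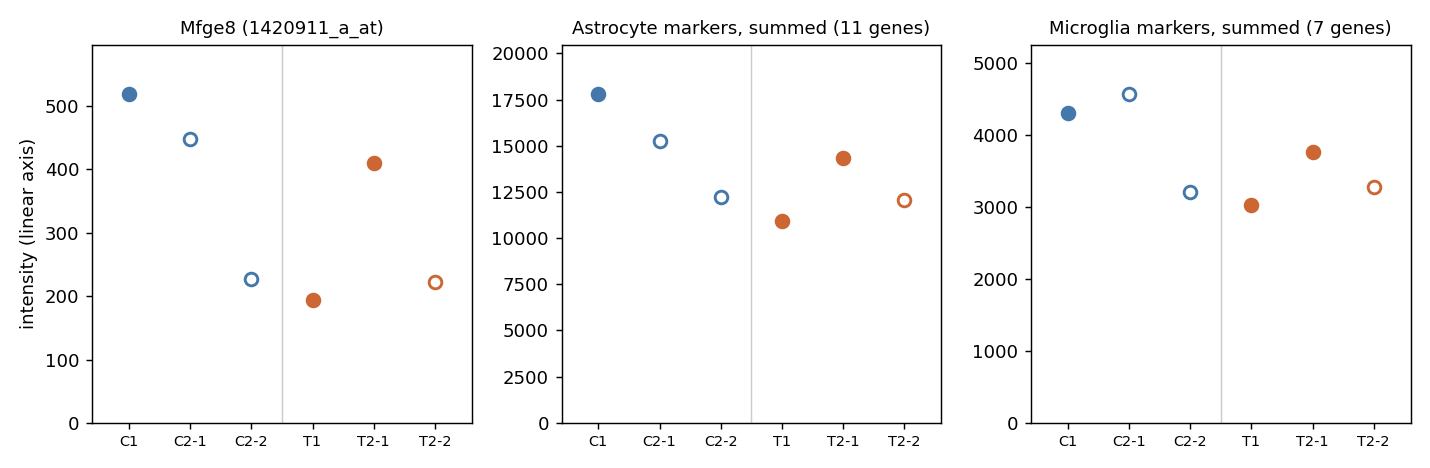
Intensity (linear axis) of Mfge8 beside the summed intensity of 11 astrocyte and 7 microglia markers on the 6 arrays, with C for control, T for transgenic, the mouse and array number after it, and filled points for the re-LCM tag. Mfge8 and the astrocyte sum are highest on control mouse 1 (519 and 17804) and lowest on transgenic mouse 1 (195 and 10908).

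Of the integrin receptor subunits, Itgav, the αv chain shared by both receptors, was clearly measured by 1 of its 5 probe sets. Probe set 1452784_at read 1796 on control mouse 1, 1368 and 1326 on control mouse 2, 1444 on transgenic mouse 1, and 1532 and 1177 on transgenic mouse 2. The groups overlapped, and the difference was -0.16 log2 units (95% interval -0.70 to 0.38, limma adjusted p = 0.999). Without control mouse 1, the brightest array, it was 0.048. The other 4 Itgav probe sets were at or under the floor on at least 3 arrays each. Among them 1432678_at was lower on all transgenic arrays, at 3.20, 9.79 and 0.629 against 15.5, 31.6 and 18.8 on control arrays, so every transgenic value lay under the floor.

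Itgb5, the β5 chain, was above the floor on all arrays in 3 of its 4 probe sets. The brightest, 1456133_x_at, read 140 on control mouse 1, 112 and 124 on control mouse 2, 90.2 on transgenic mouse 1, and 133 and 113 on transgenic mouse 2. The groups overlapped, with a difference of -0.29 (95% interval -0.88 to 0.30, limma adjusted p = 0.999). The other 2 well measured probe sets gave 0.05 and -0.29, also with overlap. Those ending in x_at can also capture similar transcripts, which adds to the uncertainty of 2 of the 3.

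Itgb3, the β3 chain, was not measured above the floor. Of its 2 probe sets, 1421511_at read 2.84 to 7.24 on the 6 arrays. Probe set 1455257_at read 14.6 on array 1 of transgenic mouse 2 and 1.19 to 8.19 on the others. No fold is given, since both groups lay at the floor apart from that array.

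Of Cox7c, Hapln1 and Vcan, the chromosomal neighbours among the members, Cox7c alone separated the groups, in the direction opposite to Edil3. Cox7c encodes a small subunit of cytochrome c oxidase, the last complex of the mitochondrial respiratory chain, and it is the nearest protein-coding gene to Edil3 on one side in the RefSeq gene table of GRCm38.p6. Its promoter is shown because this gene gave the second separation in the set. The capitals mark matches, on either strand, to GGAAGT, the core bound by ETS factors such as NRF-2, and to ATGGCG, a core bound by YY1; both factors are known to act on cytochrome c oxidase genes. The window is the 250 bases before the RefSeq start, chr13:86046796-86047045 of GRCm38.p6, minus strand, 5′ to 3′.
Cox7c: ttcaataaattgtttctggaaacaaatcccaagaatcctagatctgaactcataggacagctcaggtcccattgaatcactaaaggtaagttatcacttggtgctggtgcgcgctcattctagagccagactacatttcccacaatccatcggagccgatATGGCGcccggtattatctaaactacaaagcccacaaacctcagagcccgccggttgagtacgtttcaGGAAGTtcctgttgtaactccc
GGAAGT occurred in 19.7% and ATGGCG in 5.73% of 32851 RefSeq promoter windows of this length, and a match is a description of letters only. Of the 8 members, 6 had a promoter in the table, and among the other 5 only Itgav held either motif, GGAAGT at 2 positions.

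Cox7c probe set 1459885_s_at read 199 on control mouse 1 and 228 and 191 on control mouse 2. It read 115 on transgenic mouse 1 and 130 and 119 on transgenic mouse 2. All transgenic arrays were lower than all control arrays, with a gap of 0.56 log2 units, while the arrays within a group spanned 0.25 and 0.17. Mean log2 levels were 7.67 ± 0.046 for control and 6.90 ± 0.077 for transgenic mice (SD, n = 2), with a difference of -0.77 (SE 0.16, 95% interval -1.18 to -0.36). It did not pass the limma test over 14678 genes (adjusted p = 0.999, unadjusted p = 0.0052). With the same test 0 genes (0%) were called and 632 (4.31%) had an unadjusted p under 0.05. All transgenic arrays lay below all control arrays for 4.22% of genes and above for 3.86%. The second Cox7c probe set, 1459884_at, was dim, at 23.8, 4.51 and 19.4 on control and 13.1, 6.16 and 20.0 on transgenic arrays, and did not separate them.

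A further probe set may read Cox7c. Probe set 1448112_at is listed under Gm12338, a transcribed pseudogene, but the accession it is listed with is that of the RefSeq transcript of Cox7c, and no other probe set showed such a conflict for any of the 8 genes. It was noticed after its values were seen. It read 1843 on control mouse 1 and 2280 and 1776 on control mouse 2. It read 843 on transgenic mouse 1 and 1394 and 955 on transgenic mouse 2. The groups did not overlap here either, and the difference was -0.97 log2 units (SE 0.21, 95% interval -1.53 to -0.40, limma adjusted p = 0.999), a 1.95-fold lower signal. Because pseudogenes of Cox7c are near copies, and the ending s_at of 1459885_s_at also marks probes shared by several transcripts, these signals cannot be assigned to Cox7c alone.

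Both probe sets kept their direction when any 1 mouse was left out, from -0.82 to -0.71 for 1459885_s_at and from -1.19 to -0.74 for 1448112_at. Within the 3 arrays tagged re-LCM the differences were -0.70 and -0.77, and within the 3 others -0.81 and -1.08. In the fit that takes the arrays as separate samples, the tag itself moved 1459885_s_at by -0.013 log2 units (SE 0.17) and 1448112_at by 0.029 (SE 0.26). Other subunits of cytochrome c oxidase lay closer to 0: of 12 measured from a list of 17, 9 were higher and 3 lower, with differences from -0.24 to 0.19 and a median of 0.05, and 0 separated the arrays. Those of smallest p were Cox7a2l at -0.12, Cox7a2 at 0.12, Cox5a at 0.12 and Cox6a2 at -0.24. Over all genes the median was 0.0026, and 50.5% were higher in the transgenic mice.

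**Figure D3:**
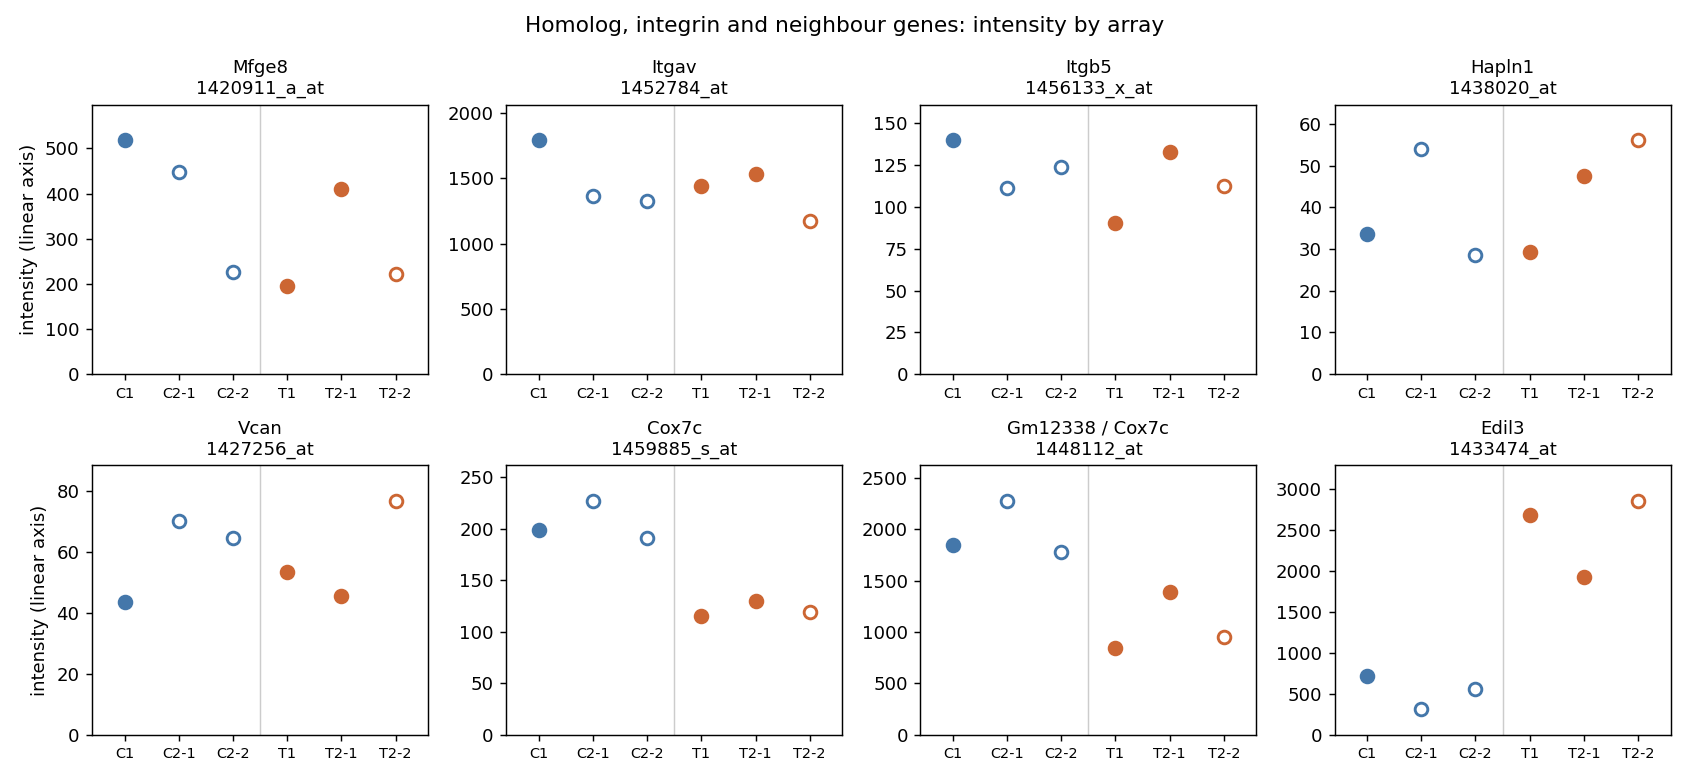
Intensity (linear axes from 0) on the 6 arrays for the probe set used for each member, and for 1448112_at, listed as Gm12338 with a Cox7c accession; C is control, T transgenic, filled points carry the re-LCM tag. Both Cox7c panels show all transgenic arrays below all control arrays (115 to 130 against 191 to 228, and 843 to 1394 against 1776 to 2280), while Mfge8, Itgav, Itgb5, Hapln1 and Vcan overlap.

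Hapln1 and Vcan, the next protein-coding genes on the other side of Edil3, did not separate the groups. Hapln1 encodes a link protein that ties proteoglycans to hyaluronan. Its brightest probe set, 1438020_at, read 33.6 on control mouse 1, 54.0 and 28.5 on control mouse 2, 29.2 on transgenic mouse 1, and 47.4 and 56.2 on transgenic mouse 2. The difference was 0.10 log2 units (95% interval -0.73 to 0.93, limma adjusted p = 0.999), and the other 3 Hapln1 probe sets were at or under the floor on 1 to 3 arrays each.

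Vcan encodes versican, a large chondroitin sulfate proteoglycan bound by such link proteins. Its brightest probe set, 1427256_at, read 43.6 on control mouse 1, 70.1 and 64.6 on control mouse 2, 53.4 on transgenic mouse 1, and 45.6 and 76.9 on transgenic mouse 2. The difference between the groups was 0.05 (95% interval -0.62 to 0.73). The 3 tagged arrays were all lower than the 3 untagged ones, by 0.63 log2 units (SE 0.17), which did not pass over all genes (limma adjusted p = 0.937, unadjusted p = 0.0086, with 5.14% of genes under 0.05 and 0% called for the tag). The fit for the tag takes the arrays as separate samples, so its SE and p do not measure the spread between mice. Among controls the tag cannot be told apart from the mouse. The other 7 Vcan probe sets were at or under the floor on at least 2 arrays each.

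Over the wider neighbourhood, the 8 nearest measured genes on each side of Edil3 were compared. Of these 16, 7 were higher and 9 lower in the transgenic mice, with a median of -0.02, and 0 passed the limma test. The arrays did not overlap for 4 of them (25%), against 8.07% of all genes and 7.73% of the other 414 measured genes of the chromosome. Cox7c was the lowest of the 16. A230107N01Rik, with no assigned function here, was at -0.51 (SE 0.25), with 41.3, 59.8 and 53.5 on control and 29.5, 40.9 and 36.7 on transgenic arrays. Ssbp2, a single-stranded DNA-binding protein, was at -0.16 (SE 0.16), and Atg10, an enzyme of autophagosome formation, at 0.22 (SE 0.15). The genes beyond Vcan, Xrcc4 of DNA end joining at -0.0080 and Tmem167 at 0.18, and those beyond Cox7c, Rasa1 at 0.17, Ccnh at 0.018 and Tmem161b at 0.05, overlapped. Cox7c, the lowest of these genes, thus lay beside Edil3. Edil3 was chosen for its higher signal, so its place as the highest of them is no finding. The rest lay between -0.61 and 0.22. Low values also stood further off, with overlap: 2810049E08Rik at -0.57 (SE 0.25), Gm17750 at -0.48 (SE 0.20) and 4833422C13Rik at -0.61 (SE 0.35).

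**Figure D4:**
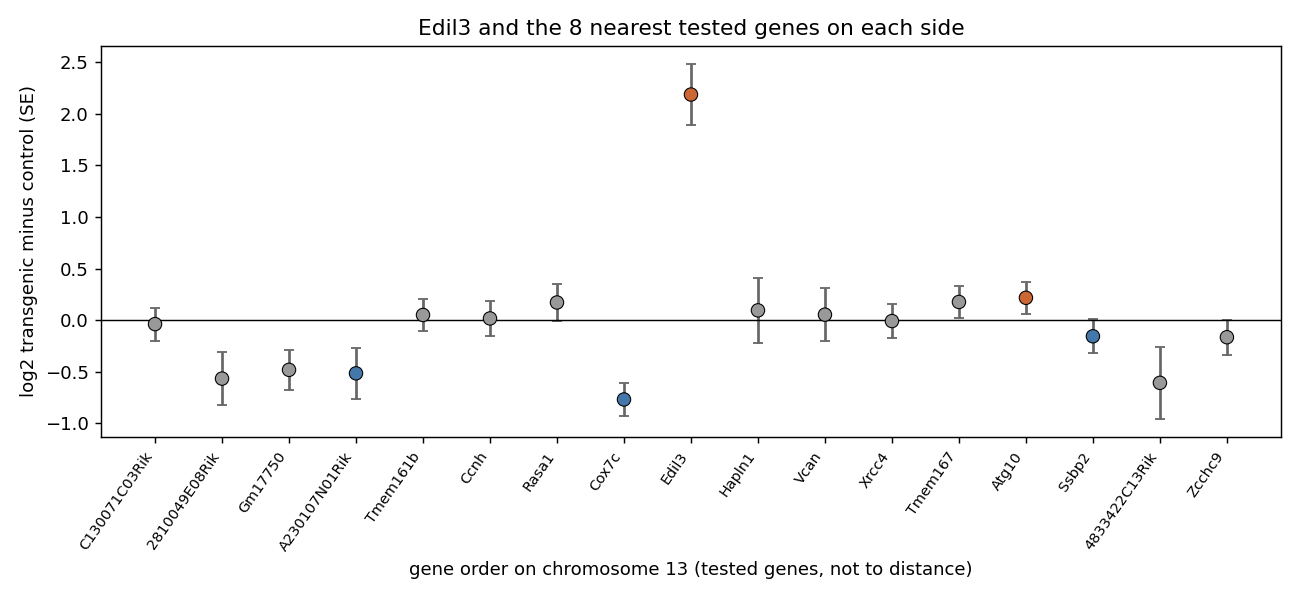
Log2 difference, transgenic minus control, with its standard error, for Edil3 and the 8 nearest measured genes on each side in their order on chromosome 13 (not to distance); orange marks genes higher and blue genes lower on all transgenic arrays, grey overlapping ones. Edil3 stands at 2.19, its neighbour Cox7c at -0.77, and the others lie between -0.61 and 0.22.

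The wider pathway was described by lists of related genes, none of which had a member past the threshold. Of 22 other integrin subunits on the array 7 were measured, 3 higher and 4 lower (median -0.07). Itgb8, a further partner of the αv chain, read 1363, 1177 and 1305 on control and 1533, 1522 and 1555 on transgenic arrays, a difference of 0.24 (SE 0.16) with no overlap. Itga4, a leukocyte integrin chain, was at -0.69 (SE 0.32), Itga7 at 0.31 and Itga8 at 0.26, all with overlap. Itgb1 and Itgb6, the other partners of αv, did not pass the filter on low signal.

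Of the 24 other listed ligands of αv integrins on the array, 10 were measured, 2 higher and 8 lower (median -0.16). Fn1, encoding fibronectin, read 54.3, 85.3 and 88.1 on control and 48.7, 42.1 and 31.0 on transgenic arrays, a difference of -0.71 (SE 0.30) with no overlap. Dmp1, a matrix protein of bone, was at 0.86 (SE 0.40) with overlap, L1cam, a neuronal adhesion molecule, at -0.20 and Adam23 at -0.17. Of the adhesion signalling genes downstream of integrins 28 of 30 were measured, 14 higher and 14 lower (median -0.0026). The Src-family kinase Fyn was lower on all transgenic arrays (-0.43, SE 0.18), while Cav1, the main protein of caveolae, was at -0.74 (SE 0.28), Tns1 at 0.41 and Fermt3 at -0.70 with overlap.

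Of 22 genes of phosphatidylserine recognition and engulfment on the array 13 were measured, 8 higher and 5 lower (median 0.06). Pros1, protein S, which bridges phosphatidylserine to TAM receptors, read 51.0, 50.7 and 49.3 on control and 38.6, 32.9 and 23.6 on transgenic arrays, a difference of -0.62 (SE 0.22). The complement genes C1qc and C1qb, which also mark microglia, were at -0.60 and -0.28, and the engulfment receptor Megf10 at -0.30. Of 10 measured genes for other discoidin domain proteins 4 were higher and 6 lower (median -0.04), with 0 separating the arrays. Among them were Dcbld1 at 0.22, Cntnap4 at -0.50, Cntnap2 at -0.27 and Aebp1 at 0.34. Of 12 measured genes of hyaluronan matrix and perineuronal nets 7 were higher and 5 lower (median 0.05), with Hapln2 at -0.58 (SE 0.19), Adamts1, a protease that cleaves versican, at -0.46 with no overlap, Has1 at 0.38 and Adamts9 at 0.35. In each list at most 1 gene separated the groups, beside the 8.07% of all genes, so these counts are no result about the lists.

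**Figure D5:**
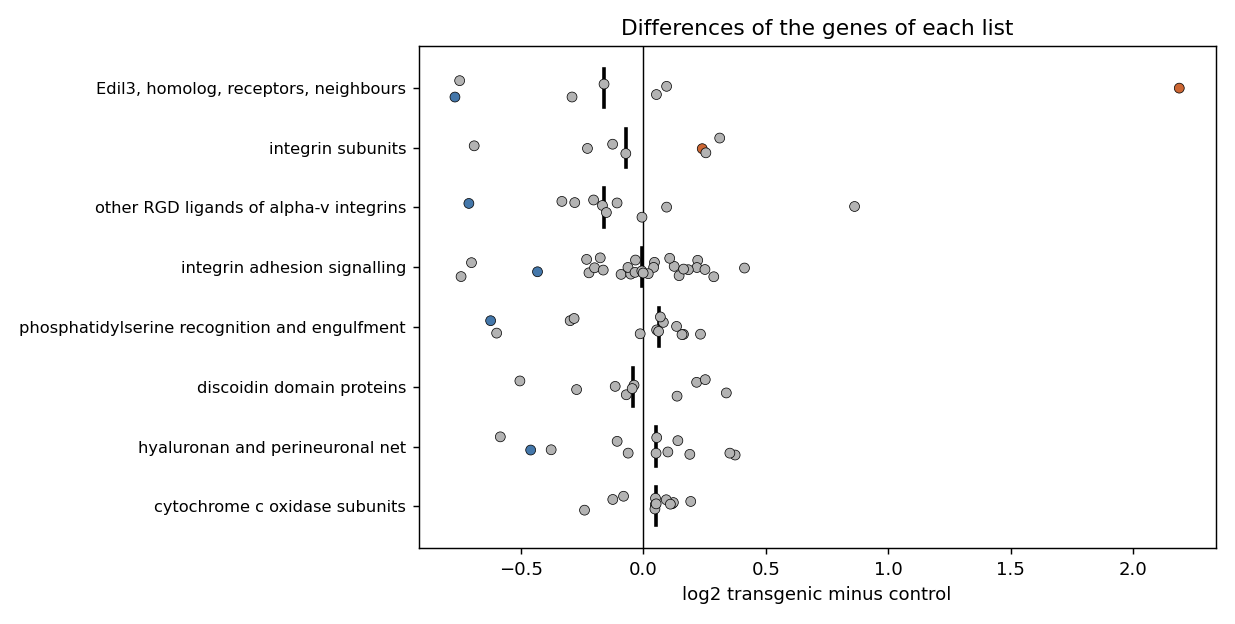
Log2 difference, transgenic minus control, of each measured gene in the lists around Edil3, with a bar at each list's median; orange and blue points are genes whose transgenic arrays all lay above or below the control arrays, grey points overlap. Edil3 at 2.19 stands apart from every other gene shown, which lie between -0.77 and 0.86, and the medians of the lists lie between -0.16 and 0.06.

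Genes whose pattern over the arrays most resembled that of 1433474_at were found by Pearson's r of log2 values over the 6 arrays, among 2612 named genes that ranged over at least 1 log2 unit. The points share mice, so r is only a description. Zfp458, a zinc finger gene also on chromosome 13 but not among the 16 neighbours, came first (r = 0.991), with 50.4, 26.5 and 37.6 on control and 123, 108 and 171 on transgenic arrays. It repeated the order of the control arrays and the high second array of transgenic mouse 2. Iqsec1, a regulator of ARF GTPases (r = 0.978), the noncoding RNA Snhg11 (r = 0.967), 2310033P09Rik (r = 0.962) and Sec24b, of the COPII vesicle coat (r = 0.958), followed. Snhg11 read 478, 344 and 481 on control and 1307, 901 and 920 on transgenic arrays. The most opposite patterns were those of Gstk1 (r = -0.973), R3hcc1l (r = -0.970), Lims2 (r = -0.960), Pdzrn4 (r = -0.959) and Gsta3 (r = -0.950). Since the measure of likeness is to a probe set chosen for separating the groups, genes at both ends of this ranking tend to separate them too, and that is no finding. Gstk1 and Gsta3 encode glutathione transferases and Lims2 an adaptor of integrin adhesions. Probe set 1448112_at, which may read Cox7c or its pseudogene, came after these 5 (r = -0.947).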

How the data were processed

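The authors deposited linear probe set intensities, scaled so that every array has a 2% trimmed mean of 150.001. The program and its background correction: not given in the sources used. The 64 control probe sets were left out. Intensities were floored at 10.1 and log2-transformed, with 23.9% to 26.4% of each array's probe sets at or under the floor. Probe sets with a mean above the median were kept, 1 per gene (the brightest), which left 14678 items, called genes, of which 11138 have a symbol. All 45037 probe sets were fitted too. Arrays of a mouse were averaged, and 2 against 2 mice were compared with limma 3.58.1 in R 4.3.3 (Benjamini-Hochberg, threshold 0.05); the fit was tested on simulated data.

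Of the 32 member probe sets 10 passed the filter, for 7 of 8 genes. Members and lists were chosen with earlier results of these data known. Genes named are the members, the 8 nearest measured genes on each side of Edil3, up to 4 genes of smallest p per list and the 5 most like and unlike Edil3; Itgb1, Itgb6, Clu, Slc1a3 and Gm12338 were added after their values were seen. Alternatives changed the normalization, floor, filter, probe set summary, replicate unit, blocks, tag, variance model and the arrays included. Symbols come from the platform annotation, gene order, transcripts and promoters from RefSeq (GRCm38.p6).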

Additional observations from a re-analysis of the deposited data

How the results depend on the processing

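With limma, 0 of 14678 genes were called, and 0 in 20 of 21 alternatives; with a variance trend and robust variance 1 was, Edil3, which was chosen on this contrast, so that call supports nothing. Unadjusted, 632 genes had p under 0.05. Over every probe set 0 were called, and 6 with the floor at the median, none of them of a member. Edil3 was at 2.19, with 1.80 to 2.57 over leave-outs, 1.66 in tagged and 2.76 in untagged arrays, 1.14 averaged over its 2 probe sets that passed and 0.90 as the median of all. Deviations of mice with the same number correlated at 0.033, which with 2 mice per group cannot show whether the numbers pair the mice. With the mouse number as a replicate block Edil3 stayed at 2.19 and 0 genes were called. Mfge8 (-1.10 to -0.33), Itgb5 (-0.51 to -0.062) and Cox7c (-0.83 to -0.59, lowest limma adjusted p 0.134) kept their direction in all alternatives run. That lowest p came with the mouse as a random block, where the correlation within a mouse was estimated as negative (-0.537). The SE of Cox7c was 0.10 there, against 0.16 in the main fit. Directions near 0 turned: Itgav ran from -0.37 to 0.048 over leave-outs, Hapln1 from -0.32 to 0.51 (-0.039 as the median of its probe sets), and Vcan from -0.26 to 0.37 (-0.025 with 6 separate arrays, -0.095 with the mouse as a random block, -0.050 with the title numbers of the control arrays as mice, an alternative chosen after seeing the data). No value came for Vcan as the median of all probe sets, which lay at the floor, for Itgb3, or for Hapln1, Vcan and Itgb5 where the stricter filter removed them.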
